A study of Mus musculus with 19 samples.

Results

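A set of 10 immediate early and AP-1 genes were followed across all libraries of a mouse bone-marrow RNA-seq series on mutant ASXL1: Fos, Fosb, Jun, Junb, Jund, Egr1, Ier2, Zfp36, Nr4a1 and Dusp1. They were taken from the deposited gene counts by symbol alone, and all 10 were found among the 14246 genes listed for every library. The series asks how mutant ASXL1, a chromatin regulator protein, acts in clonal hematopoiesis and chronic myelomonocytic leukemia, and its 19 libraries form 6 groups, each WT or MT (ASXL1 mutant). Myeloid cells sorted for CD11b came from mice of 4 months (young Cd11b, 3 MT and 4 WT libraries) and of 18 months (old Cd11b, 3 MT and 3 WT). LK cells, the Kit-positive fraction of marrow without lineage markers, which holds stem and progenitor cells, came from mice of 18 months (3 MT and 3 WT). All cells were taken from marrow and used directly. The labels name no allele, no promoter or Cre line driving it, no strain and no sex, and do not say whether replicates are separate or pooled animals, so the tests below measure the spread between these libraries, which may be technical.

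Immediate early genes are transcribed within minutes of a stimulus without needing new protein, by factors such as SRF, its ELK partners and CREB that wait on their promoters for a kinase signal. FOS and JUN proteins pair through leucine zippers to form AP-1, which binds DNA and drives a later wave of genes, while other members shut the response off: DUSP1 removes phosphate from MAP kinases and ZFP36 speeds the decay of short-lived mRNAs. In blood cells these genes respond to cytokines, adhesion and inflammatory signals, and they are also known to rise when tissue is dissociated and cells are sorted. No library here was made without sorting, so the part of handling in the levels was not tested.

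The labelled cell types were read from their markers as CPM (gene counts scaled to a common total in all 19 libraries). Itgam, which encodes CD11b, averaged 1637 and 1657 CPM in young MT and WT, 3341 and 3345 in old MT and WT, and 72.4 and 49.7 in LK MT and WT libraries. Kit, the receptor that defines LK cells, averaged 180.1 and 211 CPM in LK MT and WT and at most 109 in any Cd11b group. Gene totals ran from 26251822 to 38347903 counts in young, from 41909460 to 68260809 in old and from 31853263 to 59882448 in LK libraries. The young set stood apart from both others: the small nuclear RNA 7SK stood at 6124 to 11880 CPM there, against 4.83 to 5.37 in old and 3.33 to 5.06 in LK libraries, under 1 extraction and library protocol in the labels, so age and other differences between the sets cannot be told apart. Young MT replicate 3 and young WT replicate 4 also differed from the other 5 young libraries in sex-linked genes, with Ddx3y above Xist in place of the reverse. Every library of 18 months had Ddx3y above Xist too, so the young and old sets differ in sex-linked expression as well as in age. In each of the 4 groups of 18 months, replicates 2 and 3 were close to each other (chi-square per degree of freedom over genes 2.92 to 6.39) and replicate 1 was farther from both (13.7 to 44.5). For the 10 genes the largest log2 difference between replicates 2 and 3 was 0.07 to 0.17 by group, against 0.34 to 0.83 for pairs with replicate 1. Such values do not show whether replicates 2 and 3 are separate animals or repeats of 1 sample. All 3 replicates were used as they are labelled, and the values with replicates 2 and 3 summed stand beside the calls that this changes.

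The promoters of 8 of the 10 genes were matched in RefSeq (GRCm38.p6), and the 250 bases before the start of transcription were read. The cyclic AMP response element TGACGTCA, its core TGACG, the related TGCGTCA, the AP-1 site TGANTCA, the EGR site GCGGGGGCG, TATAAA and the CArG box of SRF were searched on both strands, and matches of overlapping motifs were counted for each. The core TGACG was found in 5 of the 8 windows (Fos, Fosb, Junb, Nr4a1 and Dusp1) and in 17.8% of all 32851 windows of the same length. Jun, Jund and Zfp36 held no match to it, and they were called higher in LK MT cells, as was Junb, which held it. The whole element TGACGTCA, in 1.55% of all windows, was found in Dusp1 alone. TGCGTCA, in 1.75% of all windows, contains the core read on the other strand. The AP-1 site (6.75% of all windows) was in none of the 8, and the CArG box (1.47%) was in the window of Zfp36. The EGR site (2.57%) was in 3 of the 8 (Fosb, Zfp36 and Nr4a1) and TATAAA (12.4%) in Fos alone. The sequences of 4 genes are shown as examples picked by outcome: Fos, Fosb and Dusp1 rose in LK MT cells and Nr4a1 did not pass the test. They run 5′ to 3′ on the strand of the gene, with the matches to the core and to TGCGTCA in capitals. All 250 bases are shown for Nr4a1. For Fos, Fosb and Dusp1 only the 200 farthest from the start are shown. This leaves out TATAAA of Fos at -33 and the EGR site of Fosb at -50. The sequences shown lie at chr12:85473640-85473839 (+) for Fos, chr7:19310096-19310295 (-) for Fosb, chr17:26508523-26508722 (-) for Dusp1 and chr15:101266596-101266845 (+) for Nr4a1.
Fos: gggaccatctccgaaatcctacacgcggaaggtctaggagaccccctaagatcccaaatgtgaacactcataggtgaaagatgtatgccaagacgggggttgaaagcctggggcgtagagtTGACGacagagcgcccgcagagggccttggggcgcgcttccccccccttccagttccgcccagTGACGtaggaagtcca
Fosb: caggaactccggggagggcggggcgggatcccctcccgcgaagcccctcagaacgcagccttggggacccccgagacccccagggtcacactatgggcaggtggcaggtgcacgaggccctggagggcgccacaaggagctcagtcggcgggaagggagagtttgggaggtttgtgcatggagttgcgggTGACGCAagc
Dusp1: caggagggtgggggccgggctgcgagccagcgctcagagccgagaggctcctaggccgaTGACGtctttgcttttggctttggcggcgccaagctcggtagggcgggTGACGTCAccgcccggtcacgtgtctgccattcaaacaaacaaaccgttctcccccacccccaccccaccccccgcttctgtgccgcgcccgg
Nr4a1: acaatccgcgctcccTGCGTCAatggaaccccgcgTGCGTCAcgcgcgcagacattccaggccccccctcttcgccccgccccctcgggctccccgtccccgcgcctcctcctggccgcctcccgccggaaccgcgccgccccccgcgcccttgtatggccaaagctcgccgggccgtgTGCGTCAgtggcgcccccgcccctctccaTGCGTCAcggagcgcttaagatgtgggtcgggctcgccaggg
Nr4a1 thus held the core 4 times, Dusp1 3 times (the element TGACGTCA holds it on both strands), Fos 2 times and Fosb 1 time. A match describes these letters in this window, and whether a factor binds there was not tested.

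All 10 genes were read in every library. Compared per kilobase of the longest transcript, Junb was the highest of the 10 in old Cd11b cells (915 ± 71.9 CPM per kb for MT and 781 ± 96.2 for WT libraries; SD, n = 3 each) and Fos in the other 4 groups (262 ± 6.7 and 178 ± 18.8 in LK MT and WT, SD, n = 3 each). After Fos, LK cells held most of Jun and Jund (124 and 123 CPM per kb in WT), and young and old Cd11b cells held most of Junb and Zfp36. The lowest per kilobase were Nr4a1 in LK and young cells (7.43 CPM per kb in LK WT) and Fosb in old Cd11b cells (12.7 in old WT). The 10 genes together made up 0.386 to 0.636% of gene counts in young, 0.436 to 0.691% in old and 0.232 to 0.313% in LK libraries.

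**Figure D1:**
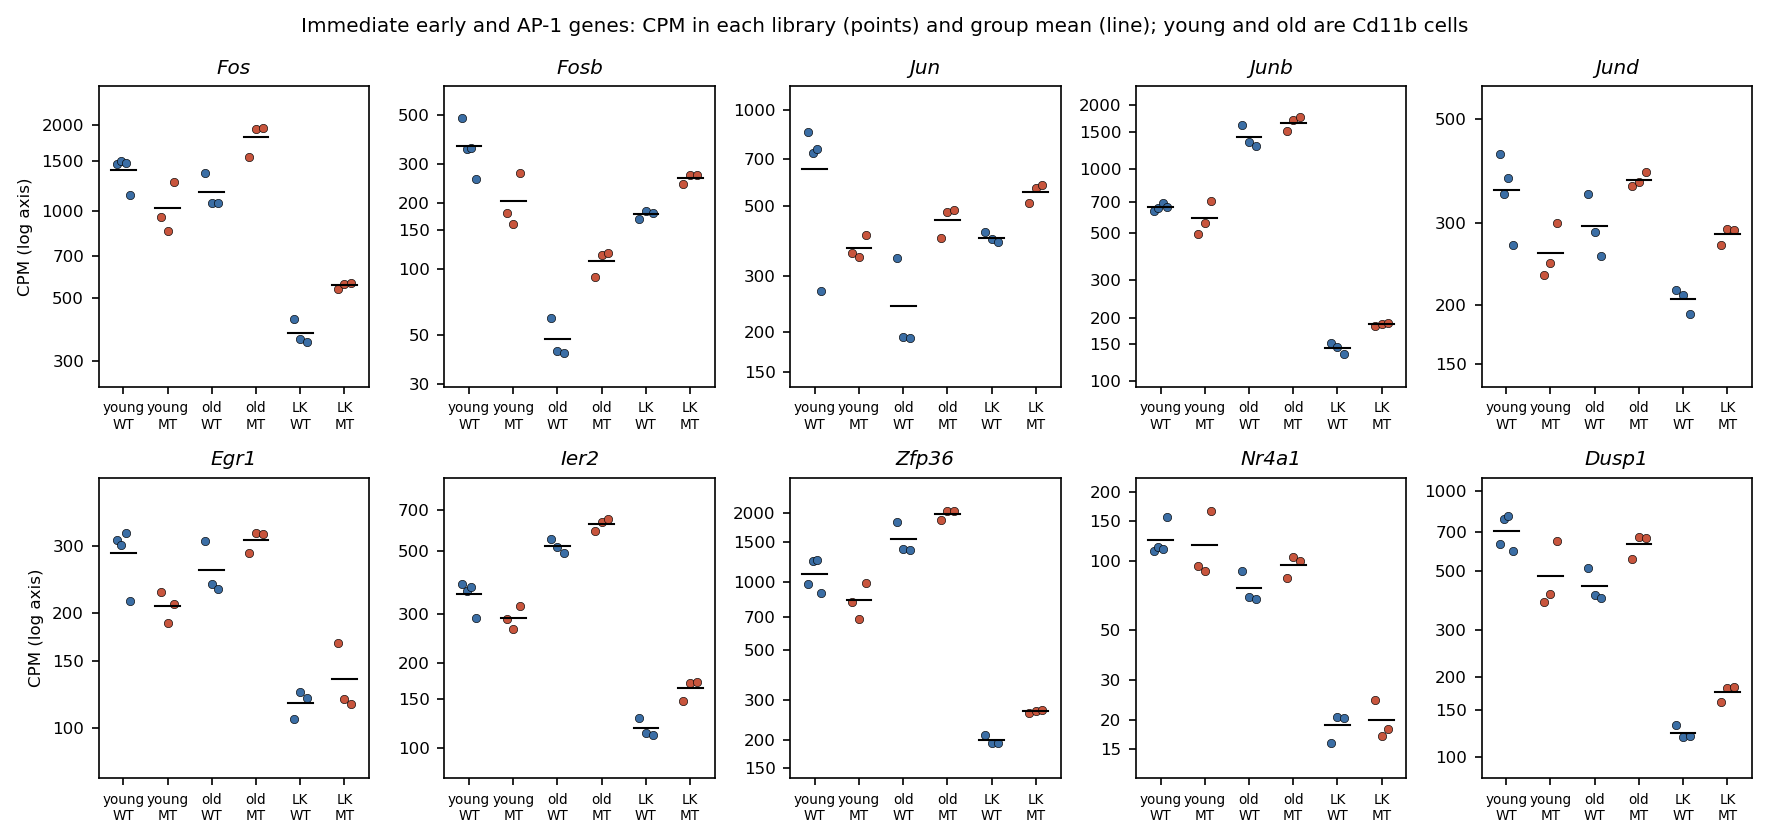
CPM (log axis, scaled over all 19 libraries) of each of the 10 genes in every library (points) with the group mean (line), for young and old Cd11b and for LK cells, WT and MT. Both LK groups have the lowest means for 7 of the 10 genes, and Fosb, Jun and Jund are the exceptions. Old MT libraries are at 1548 to 1960 CPM for Fos and old WT libraries at 1070 to 1366.

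In LK cells 8 of the 10 genes were higher in MT than in WT libraries at an edgeR adjusted p under 0.05 over all genes tested, by 1.27 to 1.44 times, and every MT library lay above every WT library for each of these 8. The other two, Egr1 and Nr4a1, did not pass. This comparison called many genes: 29.8% of 14113 genes in either direction and 13.9% higher, so single calls were common here. An unadjusted edgeR p under 0.05 was met by 5963 of the 14113 genes. The share of all genes whose MT and WT libraries did not overlap is not given here. The median log2 fold change was 0.44 for the 10 genes and 0.02 for all genes tested.

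Among the FOS subunits of AP-1, Fos (chr12:85473890-85477273, +) was at 536, 558 and 562 CPM in LK MT and at 421, 358 and 349 in LK WT replicates 1 to 3. Its log2 fold change was 0.53 ± 0.06 (SE), with an edgeR adjusted p of 0.00627. Fosb (chr7:19302696-19310051, -), a close relative with a similar zipper, was at 243, 266 and 268 CPM in MT and at 169, 183 and 180.2 in WT. The Fosb difference was 0.51 ± 0.05 on the log2 scale (SE; edgeR adjusted p 0.00571), and the groups of neither gene overlapped.

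The JUN subunits, which can pair with each other as well as with FOS proteins, were all higher in LK MT cells. Jun (chr4:95049034-95052222, -) was at 508, 566 and 580.0 CPM in MT and at 414, 392 and 383 in WT, a log2 fold change of 0.45 ± 0.05 (SE; edgeR adjusted p 0.00571). Jund (chr8:70698949-70700616, +), the member of the family that resting cells express, was at 268, 291 and 289.8 CPM against 215, 211 and 191, a log2 fold change of 0.43 ± 0.05 (SE; edgeR adjusted p 0.00571). For Jun and Jund alike the lowest MT library stood above the highest WT library. Junb (chr8:84974484-84978718, -), often a weaker activator than JUN, was at 183, 187 and 189 CPM against 152, 145 and 135, with the smallest of the 8 changes at 0.34 ± 0.04 (SE; edgeR adjusted p 0.00627). Exons of Junb overlap those of Prdx2 on the other strand, and the strand setting of the counting is not given in the sources used here. Prdx2 was at 583 CPM in LK MT and 540 in LK WT, and differed by 0.08 on the log2 scale (edgeR adjusted p 0.116).

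The genes that limit the response were higher in LK MT cells as well. Dusp1, the MAP kinase phosphatase (chr17:26505590-26562128, -), was at 161, 181 and 182 CPM in MT and at 132, 119 and 119 in WT, a log2 fold change of 0.47 ± 0.05 (SE; edgeR adjusted p 0.00571). Its exons overlap Ergic1 on the other strand, which differed by 0.01 on the log2 scale (edgeR adjusted p 0.911). Zfp36 (chr7:28376784-28380253, -), which encodes tristetraprolin, a protein that binds AU-rich mRNAs, was at 264, 269.7 and 270.1 CPM against 210.5, 194 and 194. The Zfp36 difference of 0.40 ± 0.04 on the log2 scale had the smallest adjusted p of the 10 (SE; edgeR, 0.00561). Ier2 (chr8:84661331-84662852, -), an early gene that encodes a nuclear protein, was at 147, 171 and 172 CPM against 128, 113 and 112, a log2 fold change of 0.45 ± 0.06 (SE), with an edgeR adjusted p of 0.00627. For all 3 genes the groups did not overlap.

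Egr1 and Nr4a1, 2 transcription factors outside the AP-1 family, behaved otherwise. Egr1, a zinc finger factor, was at 167, 119 and 116 CPM in LK MT and at 106, 124 and 119.9 in LK WT, so that only MT replicate 1 stood above the WT libraries. Its log2 fold change was 0.18 (95% interval -0.14 to 0.49; edgeR adjusted p 0.450). Intervals given here and below are normal ones from the SE and are narrower than the F test would give. Nr4a1 (chr15:101254269-101274795, +), an orphan nuclear receptor and the least abundant of the 10 in these cells, was at 24.6, 17.1 and 18.3 CPM in MT and at 15.9, 20.6 and 20.5 in WT. Its log2 fold change was 0.05 (95% interval -0.29 to 0.38; edgeR adjusted p 0.860). In both genes replicate 1 was the highest MT library and the lowest WT library. Without LK MT replicate 1 the log2 fold changes were -0.03 for Egr1 and -0.14 for Nr4a1, and neither passed the test.

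Leaving out each LK library in turn kept 8 calls each time, in fits that called 6.87 to 38.8% of all genes. With the replicate number added to the fit as a block, 0 of the 10 passed (lowest edgeR adjusted p 0.0666), where 0.0213% of 14113 genes did. Replicates 2 and 3 of each group were also summed to 1 library. Then 0 of the 10 passed (lowest edgeR adjusted p 0.175), where 0.0207% of 14512 genes did. In that fit 8 of the 10 and 2914 of the 14512 genes were at an unadjusted edgeR p under 0.05. The plot of LK settings shows these values gene by gene.

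**Figure D2:**
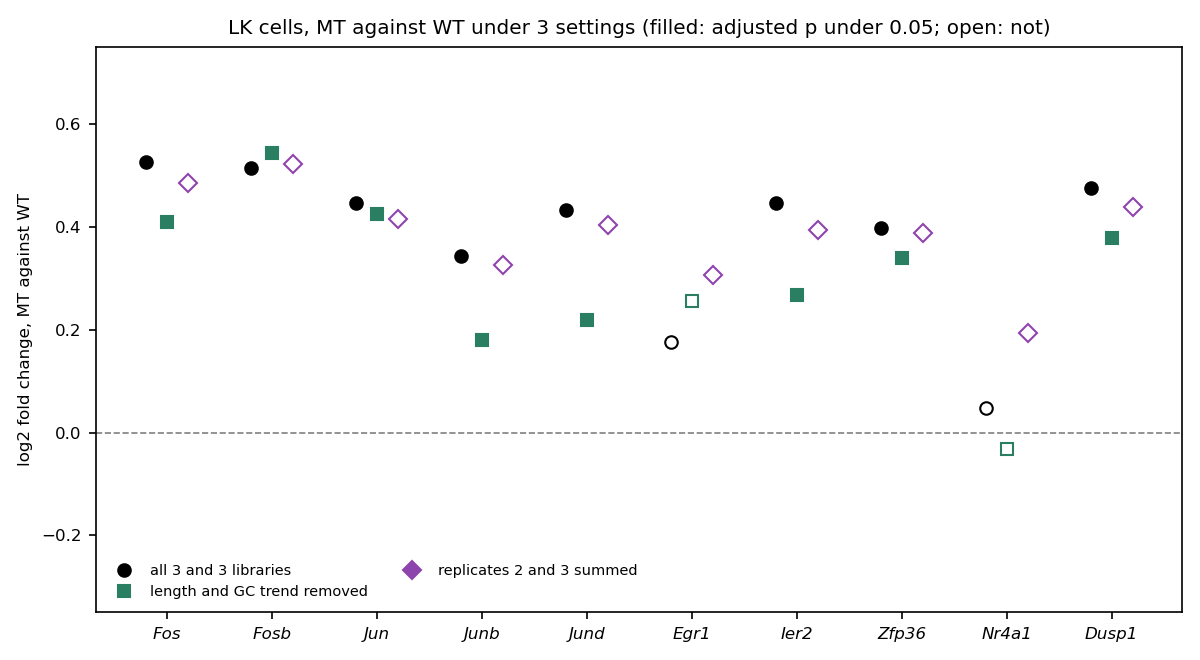
Log2 fold change of MT against WT in LK cells for each gene under 3 settings, with filled symbols at an edgeR adjusted p under 0.05. With all libraries 8 genes are filled, and they are filled with the length and GC trend removed too, where the 10 genes have a median of 0.30. With replicates 2 and 3 of each group summed, no gene is filled.

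Fold changes in LK cells also moved with transcript length over all genes (Spearman correlation -0.47 over 13766 genes, a description across genes, which are not independent), so that shorter transcripts tended to be higher in MT. The 10 genes have longest transcripts of 1522 to 4484 bases against a median of 3251 over genes tested, and a GC content of 51.9 to 67.1% against a median of 49.7%. With that trend removed the same number, 8, was called, and the median of the 10 was 0.30.

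Other genes of the early response and of AP-1 were read from lists. Of 40 other immediate early genes tested in LK cells, 14 were higher and 1 was lower in MT, with a median log2 fold change of 0.14. The 3 with the smallest p were Klf6, a Krüppel-like factor (0.58 ± 0.06), Btg2, an antiproliferative gene (0.35 ± 0.04), and Dusp2, a phosphatase related to Dusp1 (0.43 ± 0.05; SE, edgeR adjusted p 0.00571, 0.00571 and 0.00627). Of the 14 other genes of AP-1 and related leucine zipper factors, 2 were higher and 1 was lower, with a median of 0.29. Atf3, a stress-induced factor, rose by 1.25 ± 0.20 on the log2 scale (SE; edgeR adjusted p 0.0072) and Batf by 0.41 ± 0.07 (0.00832), while Atf7 fell by 0.97 ± 0.16 (0.00761). Of 24 genes upstream of the response (SRF and its partners, CREB, MAP kinases), 1 was higher and 5 were lower, with a median of -0.01. The 3 with the smallest p were all lower: the kinases Rps6ka3 (-0.75 ± 0.11) and Rps6ka5 (-0.45 ± 0.07) and the SRF partner Elk4 (-0.90 ± 0.14; SE, edgeR adjusted p 0.00675, 0.00752 and 0.00693). Over all genes 13.9% were higher and 15.9% lower, which the counts of the zipper list (2 and 1 of 14) and of lower upstream genes (5 of 24) are to be read against. With the length and GC trend removed, 3 of the 24 upstream genes were higher and 3 lower. The other immediate early genes then had 15 higher and 0 lower, and the zipper list 2 higher and 1 lower. That fit called 21.5% of 13766 genes in either direction. With replicates 2 and 3 summed, 0 genes of these 3 lists were called.

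Genes known to rise with cell stress and handling were read beside these. Of 14 heat-shock and chaperone genes, 9 were higher in LK MT and 0 were lower, and all 14 had a positive value (median log2 fold change 0.45), where 13.9% of all genes were higher. With replicates 2 and 3 summed 0 of the 14 were called, and without replicate 2 or 3 of either group 0 or 1. With the length and GC trend removed 6 were called, all higher. Hspa5, the chaperone of the endoplasmic reticulum, rose by 0.49 ± 0.09 and Hspe1, the small mitochondrial chaperonin, by 0.37 ± 0.08 (SE; edgeR adjusted p 0.0107 and 0.0150). Their summed level was 9408, 12033 and 12408 CPM in MT and 9043, 8486 and 8628 in WT replicates 1 to 3. The 10 neutrophil markers summed to 1064, 3697 and 3582 CPM in MT and to 960.5, 476 and 452 in WT, against 147105 to 177866 in old Cd11b libraries, and Ly6g, a surface marker of mature neutrophils, averaged 0.786 and 0.0962 CPM in LK MT and WT. The 10 genes summed to 2503 CPM in MT replicate 1, 2625 and 2647 in MT replicates 2 and 3, and 1963, 1859 and 1804 in WT. Whether these sums are related was not tested. Progenitor markers, with 4 of 10 called higher and 2 lower, summed to 14503, 17393 and 17708 CPM in MT and 14463, 12948 and 12837 in WT. The erythroid markers summed to 1929 to 1970 CPM in MT and 2134 to 2270 in WT. Markers of eosinophils, basophils and mast cells were negative in all 7 genes tested, with 4 called, and summed to 541, 523 and 514 CPM in MT and 738, 559 and 547 in WT. In sorted bulk samples a change in the mix of cells and a change of RNA per cell cannot be told apart, and the part of handling in the genotype difference was not tested.

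**Figure D3:**
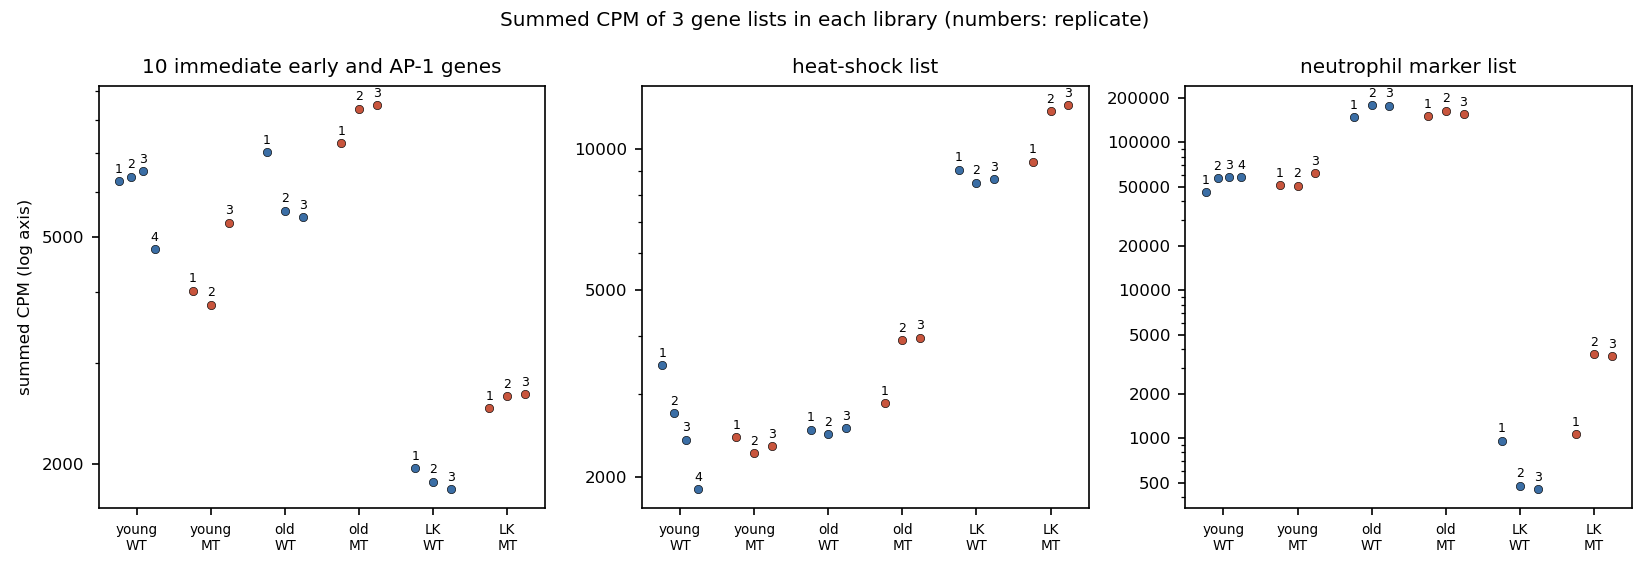
Summed CPM (log axes) of the 10 genes, of the heat-shock list and of the neutrophil marker list in each library, with the replicate number above each point. In LK cells MT replicate 1 is at 2503 CPM for the 10 genes, at 9408 for the heat-shock list and at 1064 for the neutrophil list.

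In old Cd11b cells all 10 genes had a positive MT against WT value, and none passed the test with all libraries. The comparison called 0.336% of 13398 genes, 0.127% higher and 0.209% lower, and 0 of the 10 genes in edgeR. At an unadjusted edgeR p under 0.05 were 2230 of the 13398 genes and 9 of the 10. DESeq2 called 6 of the 10, and 3.39% of 15070 genes. Their median log2 fold change was 0.35 against 0.00 for all genes tested. For 7 of the 10 every MT library lay above every WT library, and Junb, Egr1 and Nr4a1 overlapped. The share of all genes that separated in this way is not given here, so this count has no base to be read against.

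Fosb had the widest gap of the 10 in old cells, at 91.7, 116 and 118 CPM in MT and at 60.0, 42.7 and 41.8 in WT replicates 1 to 3. Its log2 fold change was 1.16 ± 0.16 (SE; 95% interval 0.85 to 1.48; edgeR adjusted p 0.0527), and the lowest MT library was above the highest WT library. Jun was at 395, 476 and 484 CPM in MT and at 341, 193 and 192 in WT, a log2 fold change of 0.90 ± 0.26 (SE; edgeR adjusted p 0.206). The Jun groups did not overlap, with WT replicate 1 far above the other two WT libraries. Fos was at 1548, 1942 and 1960 CPM in MT and at 1366, 1070.2 and 1071 in WT, a log2 fold change of 0.63 ± 0.12 (SE; edgeR adjusted p 0.0793). Dusp1 was at 556, 667 and 664 CPM against 514, 405 and 395, a log2 fold change of 0.52 ± 0.11 (SE; edgeR adjusted p 0.0943).

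The same order of libraries ran through Fos, Jun and Dusp1: WT replicate 1 was the highest WT library and MT replicate 1 the lowest MT library. Zfp36, at 1869.8, 2053 and 2058 CPM in MT and 1837, 1387 and 1381 in WT, and Ier2, at 591, 633 and 652 against 554, 519 and 493, had it too (log2 fold changes of 0.37 and 0.25; edgeR adjusted p 0.180 and 0.0800). Jund, Nr4a1, Egr1 and Junb had log2 fold changes of 0.32, 0.33, 0.25 and 0.22 (edgeR adjusted p 0.196, 0.249, 0.307 and 0.271). Without old WT replicate 1, which leaves WT replicates 2 and 3 that lie close together, all 10 genes were called in edgeR, where 13.3% of all genes were. Without old MT replicate 1 edgeR called 3, where 2.29% of all genes were called, and without any other library 0. With replicates 2 and 3 summed, 0 were called.

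The lists around them gave 0 calls in old Cd11b cells in edgeR. Over all genes tested there, 2230 of 13398 were at an unadjusted edgeR p under 0.05. Of 40 other immediate early genes 31 had a positive value and 20 an unadjusted p under 0.05, with a median log2 fold change of 0.18. Btg2 (0.54), Trib1, a pseudokinase gene (0.62), and Rhob, a small GTPase gene (0.66), had the smallest p of that list (edgeR adjusted p 0.0659, 0.0822 and 0.0857). In the zipper factor list, with a median of 0.00, Atf3 had a value of 0.78 (edgeR adjusted p 0.0860). Of 13 heat-shock genes 12 had a positive value, with a median of 0.35, and their summed level was 2865, 3908 and 3961 CPM in MT and 2518, 2465 and 2534 in WT. Neutrophil markers summed to 150634 to 163671 CPM in old MT and 147105 to 177866 in old WT. Progenitor markers, of which 6 of 10 were at an unadjusted p under 0.05 and 0 were called, summed to 1543, 1349 and 1370 CPM in MT and 1716, 1811 and 1812 in WT, without overlap. Erythroid markers, with a median log2 fold change of 0.46, summed to 67.2, 108 and 106 CPM in MT and 70.4, 67.0 and 63.3 in WT. B cell markers were low, at 154, 56.5 and 55.4 CPM in MT and 48.0 to 70.2 in WT. The part of these in the values of the 10 genes was not tested.

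**Figure D4:**
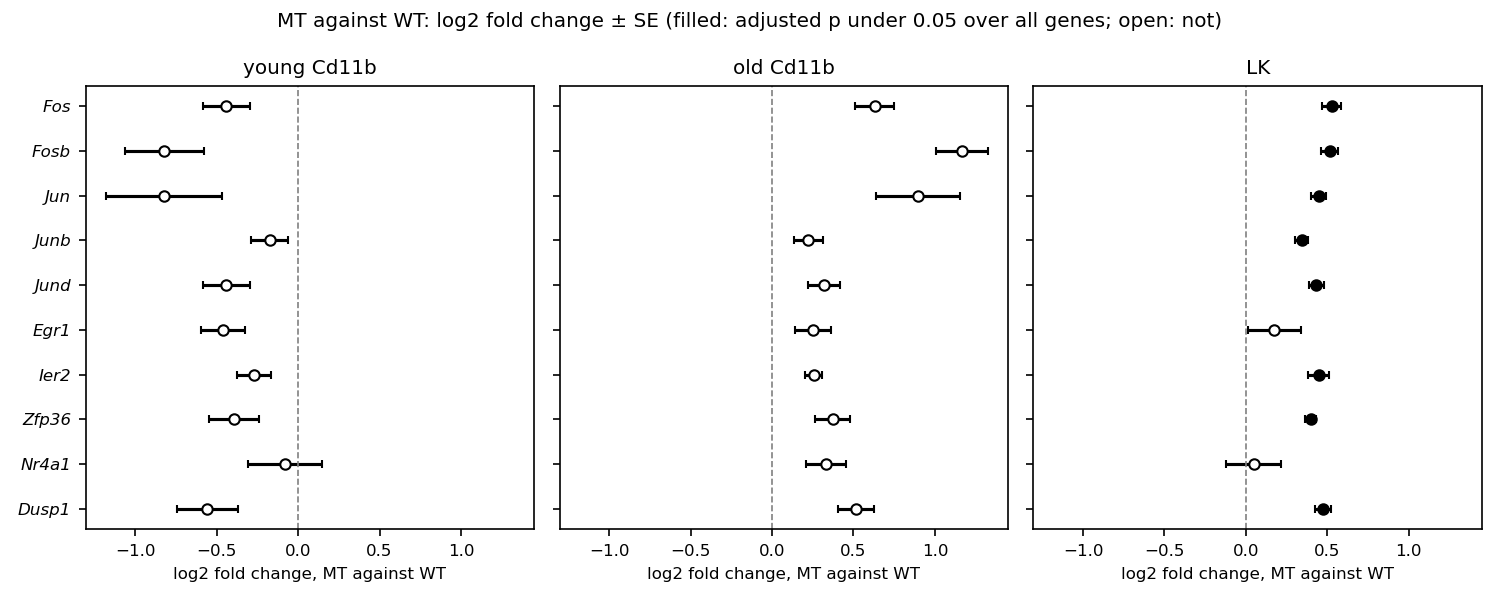
Log2 fold change of MT against WT with its SE for each gene in young Cd11b, old Cd11b and LK cells, filled where the edgeR adjusted p over all genes was under 0.05. All young values lie below 0 and all old and LK values above it, and only the LK panel has filled points (8 of 10).

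In young Cd11b cells the values pointed the other way. All 10 genes had a negative MT against WT value, with a median log2 fold change of -0.44 against -0.01 for all genes tested. The comparison called 0% of 13755 genes, and 0 of the 10 in edgeR and in DESeq2. At an unadjusted edgeR p under 0.05 were 444 of the 13755 genes and 7 of the 10. The MT and WT libraries overlapped for each of the 10 genes.

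The overlap came with the 2 libraries whose sex-linked genes differed from the rest. Among the other 5, both MT libraries were below all 3 WT libraries for each of the 10 genes. The 2 libraries were picked out from these same data, and the 10 genes tended to move together from library to library. The share of all genes that separated in this way is not given here. Jun was at 355, 345 and 404 CPM in young MT replicates 1 to 3 and at 851, 731, 754 and 269 in WT replicates 1 to 4, a log2 fold change of -0.82 ± 0.36 (SE; edgeR adjusted p 0.999). WT replicate 4 was below every MT library for Jun and the other 3 WT libraries were above all of them. Fosb was at 179.6, 161 and 271 CPM in MT and at 482, 350.3, 352 and 256 in WT, and its log2 fold change was -0.82 ± 0.24 (SE), with an edgeR adjusted p of 0.999. Fos was at 956, 857 and 1271 CPM in MT and at 1462, 1498, 1479 and 1145 in WT, a log2 fold change of -0.44 ± 0.14 (SE; edgeR adjusted p 0.999). For Fosb and Fos, MT replicate 3 was the highest MT library and WT replicate 4 the lowest WT library.

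Dusp1 and Zfp36 followed the same order, at 381, 408 and 645 CPM in MT against 631, 786, 800.3 and 595 in WT for Dusp1, and at 815, 681 and 988 against 976, 1227, 1247 and 894 for Zfp36. Their log2 fold changes were -0.56 and -0.39, those of Egr1, Jund and Ier2 were -0.46, -0.44 and -0.27, and those of Junb and Nr4a1 were -0.17 and -0.08 (all with an edgeR adjusted p of 0.999). Nr4a1 differed in its order: MT replicate 3 and WT replicate 4, at 166 and 156 CPM, were the 2 highest of all young libraries, and the other 5 were at 90.0 to 115. Without these 2 libraries 7 of the 10 genes were called in edgeR, all lower in MT, where 0.497% of all genes were called. With all 7 libraries and a covariate for sex-linked expression, 0 of the 10 were called (lowest edgeR adjusted p 0.549). In that fit 976 of 13755 genes and 5 of the 10 were at an unadjusted edgeR p under 0.05. Without WT replicate 4 alone 1 was called, where 0.00731% of all genes were, and removing that library turned the value of Nr4a1 to 0.05. Since both libraries differ from the rest in sex-linked genes and are 1 MT and 1 WT, sex and the other ways in which they differ cannot be told apart here.

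None of the other lists held a call in young cells in edgeR. Over all genes tested there, 444 of 13755 were at an unadjusted edgeR p under 0.05. Of 39 other immediate early genes 33 had a negative value and 10 an unadjusted p under 0.05, with a median log2 fold change of -0.14; Plk2, Nfkbiz and Btg2 were at -0.47, -0.34 and -0.37 (edgeR adjusted p 0.837, 0.837 and 0.999). Of 13 heat-shock genes 11 had a negative value, with a median of -0.17. Their summed level was 2426, 2247 and 2321 CPM in MT and 3453, 2733, 2396 and 1881 in WT, so that the WT libraries ran from the highest to the lowest of the set. Neutrophil markers summed to 50746 to 61756 CPM in MT and 45724 to 58270.3 in WT. Progenitor markers had a negative value in 9 of 10 genes, with 0 at an unadjusted p under 0.05. They summed to 5041, 5116 and 5024 CPM in MT replicates 1 to 3 and to 7180, 6772, 6152 and 4134 in WT replicates 1 to 4. As for Jun, WT replicate 4 was below every MT library and the other WT libraries were above all of them. The part of these sums in the young values was not tested.

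The difference between the old and the young genotype effect was tested as an interaction between genotype and age over the Cd11b libraries. Its value was positive for all 10 genes, with a median log2 of 0.76 against 0.01 for all genes tested. An unadjusted edgeR p under 0.05 was met by 9 of the 10 and by 1035 of 14024 genes. The interaction called 0 of the 10 in edgeR, where 0.0214% of 14024 genes were called, and 4 in DESeq2, where 0.429% of 14694 genes were. The values of Fosb and Fos were 1.99 (95% interval 1.29 to 2.68) and 1.07 (0.66 to 1.49), both with an edgeR adjusted p of 0.150. Without young WT replicate 4 edgeR called 5, without young MT replicate 3 it called 3, and without both it called 5. The shares over all genes were 0.279%, 0.134% and 0.543%. With the covariate for sex-linked expression it called 0 (lowest edgeR adjusted p 0.132). Since every old library had Ddx3y above Xist, age and sex-linked differences cannot be fully told apart in this test either. The heat-shock list was positive in 13 of 14 genes, with a median of 0.58 and 0 calls.

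The difference between the LK and the old Cd11b genotype effect was tested in the same way. The interaction of genotype with cell type called 1 of the 10 genes, Fosb, in a comparison that called 20.7% of 13996 genes, 8.79% higher and 12.0% lower. The Fosb value was -0.66 ± 0.19 on the log2 scale (SE; 95% interval -1.03 to -0.29; edgeR adjusted p 0.0319), since the MT against WT value was larger in old Cd11b than in LK cells. That call was lost (0 called) with replicates 2 and 3 summed, with all 19 libraries in the fit, and without replicate 2 or replicate 3 of any of the 4 groups. With the replicate number as a block 0 were called as well (lowest edgeR adjusted p 0.103). Without LK MT replicate 1 it was lost too (Fosb -0.59, edgeR adjusted p 0.0581), and Ier2 was called in the other direction (0.28, edgeR adjusted p 0.0402). The other 9 values ran from -0.46 for Jun (95% interval -0.99 to 0.08; edgeR adjusted p 0.266) to 0.18 for Ier2 (0.00 to 0.36; 0.177). The intervals of Fos (-0.41 to 0.19), Dusp1 (-0.32 to 0.22) and Zfp36 (-0.24 to 0.28) included 0, which leaves differences of that size possible.

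The 2 cell fractions of 18-month mice were compared within each genotype. In WT libraries all 10 genes were called between LK and old Cd11b cells, 8 lower and 2 higher in LK, in a comparison that called 86.8% of 13710 genes, 41.7% lower and 45.1% higher, so a call alone says little. Junb and Zfp36 had the largest differences (log2 fold changes of -3.39 ± 0.10 and -3.04 ± 0.12, SE), Junb at 144 ± 8.7 CPM against 1413 ± 174 and Zfp36 at 199.6 ± 9.47 against 1535 ± 262 (SD, n = 3 each). Ier2 (-2.25), Nr4a1 (-2.10), Dusp1 (-1.93), Fos (-1.74), Egr1 (-1.25) and Jund (-0.62) were lower too, with edgeR adjusted p-values from 7.13e-09 for Ier2 to 0.000538 for Jund. Fosb and Jun went the other way. Fosb was at 177 ± 7.75 CPM in LK and 48.2 ± 10.2 in old Cd11b cells (SD, n = 3 each), a log2 fold change of 1.78 ± 0.14 (SE; edgeR adjusted p 2.85e-06). Jun was at 396 ± 16.1 against 242 ± 85.8 CPM (SD, n = 3 each), a log2 fold change of 0.62 ± 0.22 (SE; edgeR adjusted p 0.0292), and it passed under 7 of 14 alternatives, not with replicates 2 and 3 summed.

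MT libraries gave 9 calls, 8 lower and 1 higher, in a comparison that called 87.8% of 13828 genes, 41.9% lower and 45.9% higher. Fosb was the higher gene, by 1.15 ± 0.09 on the log2 scale (SE; edgeR adjusted p 5.71e-06). Jun was at 508 to 580.0 CPM in LK MT and at 395 to 484 in old MT, with a log2 fold change of 0.19 (95% interval 0.03 to 0.34). Its edgeR p was 0.0461 unadjusted and 0.0524 adjusted. The same 8 genes as in WT were lower, Junb with a log2 fold change of -3.25 and Zfp36 of -3.00 (edgeR adjusted p 8.82e-11 and 6.41e-11). In LK WT cells 13 of 14 other zipper factors and 29 of 40 other immediate early genes were lower than in old WT Cd11b cells (41.7% of all genes), with medians of -2.06 and -1.50, while 10 of 13 heat-shock genes were higher (45.1% of all genes), with a median of 1.41.

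**Figure D5:**
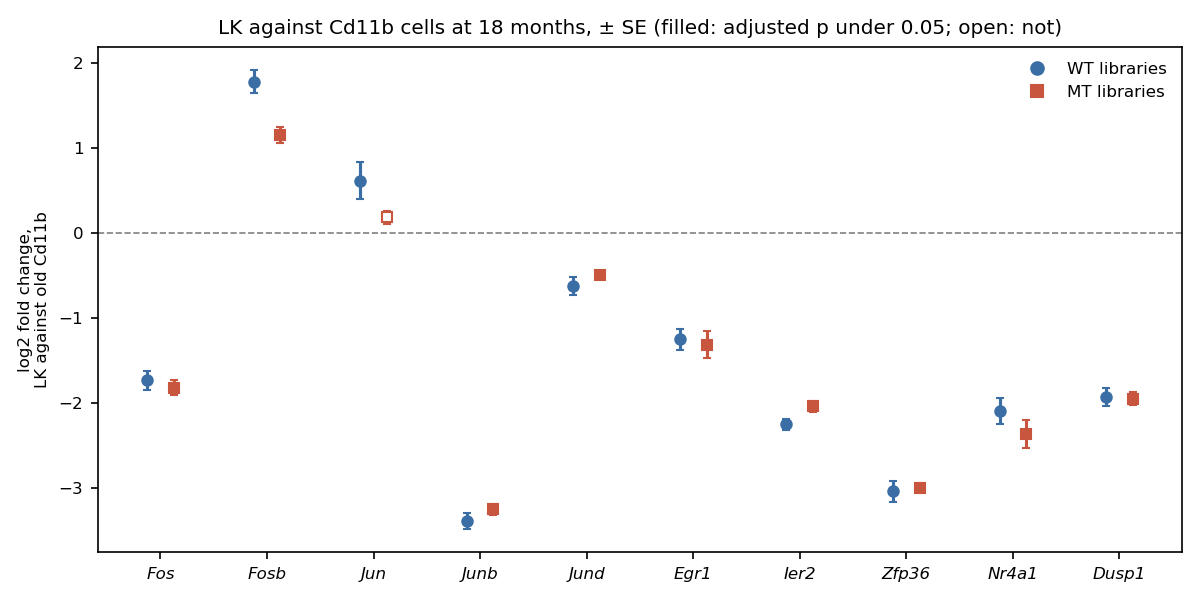
Log2 fold change with its SE of LK against old Cd11b cells for each gene, in WT (circles) and MT (squares) libraries, filled where the edgeR adjusted p was under 0.05. Fosb is higher in LK cells in both genotypes (1.78 and 1.15), Jun is called in WT only (0.62 and 0.19), and the other 8 genes are lower.

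Old and young Cd11b cells were compared within each genotype, with the reserve that the sets also differ in 7SK and in sex-linked genes. Every old library had Ddx3y above Xist, and of the young ones only MT replicate 3 and WT replicate 4 did. With the covariate for sex-linked expression the median of the 10 moved from -0.27 to 0.06 in WT, with 6 positive in place of 3. In MT it moved from 0.50 to 0.37. Age and sex-linked differences cannot be fully told apart here. In WT 3 of the 10 genes were higher in old cells and 4 lower, where 73.1% of 13719 genes were called, 36.1% higher and 36.9% lower. Junb (log2 fold change 1.07), Ier2 (0.55) and Zfp36 (0.48) were higher (edgeR adjusted p 1.41e-06, 0.000389 and 0.0106). Fosb was lower, with a log2 fold change of -2.92 ± 0.24 (SE; edgeR adjusted p 1.04e-05), at 48.2 ± 10.2 CPM in old and 360.1 ± 93 in young WT libraries (SD, n = 3 and 4), and these groups did not overlap. Jun (-1.45), Nr4a1 (-0.72) and Dusp1 (-0.70) were lower as well (edgeR adjusted p 0.0288, 0.00118 and 0.000657). Fos, Jund and Egr1 had values of -0.28, -0.27 and -0.17 (edgeR adjusted p 0.0570, 0.127 and 0.328). In MT 7 genes were higher in old cells and 1 lower, where 71.7% of 13584 genes were called, 35.2% higher and 36.5% lower. Junb, Zfp36 and Ier2 were again higher (1.45, 1.23 and 1.06), with Fos (0.78), Egr1 (0.53), Jund (0.47) and Jun (0.25) beside them, and Fosb was lower (-0.95; edgeR adjusted p from 2.08e-06 for Ier2 to 0.0288 for Jun). Dusp1 and Nr4a1 did not pass (0.35 and -0.33; edgeR adjusted p 0.192 and 0.323). The calls of Jun held under 9 of 15 alternatives in WT and 7 of 14 in MT.

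Set in order of mean CPM, the groups fell into a pattern that differed by gene. For Junb, Ier2 and Zfp36 the order was old MT, old WT, young WT, young MT, LK MT and LK WT. Of these, old MT and old WT overlapped for Junb and not for Ier2 or Zfp36, young WT and young MT overlapped for all 3, and both LK groups were below every Cd11b library. Egr1, Jund and Fos had old MT first, then young WT and old WT, and of these neighbours only old MT and young WT of Fos did not overlap. Nr4a1 and Dusp1 had young WT first, their 4 Cd11b groups each overlapped the next, and both LK groups were below every Cd11b library. Fosb ran from young WT (360.1 CPM) through LK MT (259), young MT (204), LK WT (177) and old MT (109) to old WT (48.2); young WT, LK MT and young MT each overlapped the next, and LK WT, old MT and old WT did not. Jun ran from young WT (651) through LK MT (552), old MT (452), LK WT (396) and young MT (368) to old WT (242), with LK MT above every old MT library.

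Within groups the 10 genes tended to move together from library to library. Over the 45 pairs, deviations of log2 CPM from the group mean had Pearson correlations of -0.14 to 0.88 over the 19 libraries, with a median of 0.63 and 31 pairs over 0.5. These libraries share depth, preparation and, for the 18-month groups, the distance of replicate 1 from the other two, so the values are a description. The genes outside the 10 whose deviations were most like the mean of the 10, of 12003 compared, were Btg2 (r = 0.90), Ppp1r15a (0.89), Kdm1a (0.86), 1700007L15Rik (0.86) and Rhob (0.85). Of these 5, 3 are on the list of other immediate early genes.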

How the data were processed

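RNA was extracted with an RNeasy column kit, and 200 ng went into directional NEBNext Ultra II libraries, per the labels' protocols. For each of the 19 libraries the authors deposited raw gene counts in whole numbers, in 3 sets that each list their own genes (15703 young, 15070 old, 15793 LK). The submitters' processing notes name STAR, HTSeq, DESeq2 and the build mm10, with no versions. The strand setting is not given in the sources used here, and 5 of the 10 genes overlap exons on the other strand. Deposited counts per transposable element were read to describe the sets.

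Members were matched by symbol, and the members, gene lists, tests and alternatives were chosen with earlier results of these data known. Counts were fitted with edgeR 4.0.16 (filterByExpr, TMM, robust quasi-likelihood; R 4.3.3), on the groups compared and the genes their sets share, with Benjamini-Hochberg adjustment over all genes tested. A gene was called at an adjusted p under 0.05, and 9 comparisons were made. SE is the log2 fold change divided by the square root of F. Intervals are nominal 95% intervals from a normal distribution with this SE. With few libraries they are narrower than the F test itself would give. Levels are CPM with TMM factors over all 19 libraries. Up to 3 members of each other list were named by the smallest p, given at least 50 counts on average in either group. Hspb1, at under 1 CPM in LK cells, was met by this rule and is not described. The 5 genes most alike were ranked by Pearson's r. Alternatives were DESeq2 1.42.0, RLE factors, all genes kept without a filter on low counts, 1 fit of all libraries, removal of length and GC trends, a replicate block, replicates 2 and 3 summed or alone, a sex covariate, and leaving out libraries. The fits were tested on simulated counts drawn separately for each library. These held no replicates that repeat 1 sample, so they say nothing about the closeness of replicates 2 and 3. Gene positions are from GENCODE M21 (GRCm38), and promoters from RefSeq (GRCm38.p6). Figures were drawn with matplotlib 3.10.9.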

Additional observations from a re-analysis of the deposited data

Results flagged for a closer look

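Fos in young Cd11b WT replicate 4 was at 1145 CPM, far from the other 3 WT libraries at 1462 to 1498 for the range of that group. Nr4a1 in the same library was at 155.7 CPM, far above the other 3 at 110.2 to 115. Among 4 libraries chance alone gives such a gap in about 1 of 20 groups, and 10 genes were looked at here. The library is 1 of the 2 young libraries with Ddx3y above Xist, and the part of this in both values was not tested.

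The genotype effect on Fosb differed between LK and old Cd11b cells by -0.66 on the log2 scale, in the test of the difference itself. It was lost in all 8 fits without a replicate 2 or 3 and without LK MT replicate 1 (-0.59; edgeR adjusted p 0.0581). It was also lost with replicates 2 and 3 summed, with the replicate block and with all 19 libraries in 1 fit. It was kept without any of the other 3 replicates numbered 1.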

How the results depend on the processing

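Groups held 3 or 4 libraries, and which limit governs the precision was not tested. In LK cells, MT against WT, 8 of the 10 genes were called in each fit with 4 exceptions. These were all 19 libraries (6, where 21.2% of all genes were called) and the replicate block (0, where 0.0213% were; lowest edgeR adjusted p 0.0666). The others were replicates 2 and 3 summed (0, where 0.0207% were) and replicates 2 and 3 alone (10, where 60% were). These last 10 calls were 8 higher and 2 lower, the lower being Egr1 and Nr4a1. The labels do not say whether the numbers pair the libraries. Same-number correlations of deviations from small group means ran from -0.48 to 0.52 over 21 pairs and cannot decide it. With the replicate block 0 were called in old Cd11b cells (0% of all genes) and 2 in young (0.116%). The block gave 0 in both interactions (0% of all genes with cell type and 0.2% with age). In old Cd11b cells, where 0 were called, DESeq2 called 6 (3.39% of all genes) and all 19 libraries in 1 fit 1 (0.269%). The fit without length and GC trends called 2 (0.932%) and replicates 2 and 3 alone 9 (38.5%). Leaving out single libraries gave 0 to 10 (0 to 13.3%). In young cells, with 0 called, the fit without the 2 libraries of reversed Xist and Ddx3y called 7 (0.497% of all genes). Leaving out single libraries there gave 0 to 1 (0 to 0.00731%). In the interaction with cell type, with 1 called, all 19 libraries and replicates 2 and 3 summed gave 0 (13.2% and 0% of all genes). Replicates 2 and 3 alone gave 8, of which 1 was higher and 7 lower, where 52.4% of all genes were called. Leaving out single libraries gave 0 to 2 (8.01 to 29.6%). In the interaction with age, with 0 called, DESeq2 called 4 (0.429% of all genes), all 19 libraries 2 (0.0709%) and the fit without the 2 young libraries 5 (0.543%). Leaving out single libraries gave 0 to 5 there (0 to 0.279%). Between LK and old Cd11b cells leaving out single libraries gave 9 to 10 calls in WT and in MT, and between old and young cells 6 to 10 in WT and 7 to 9 in MT. These fits called 64.8 to 87.4% of all genes. The causes were not tested.

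Some values that had not passed the test changed sign (log2). In LK cells Nr4a1 became -0.031 without length and GC trends and -0.27 with replicates 2 and 3 alone, where Egr1 became -0.12. With replicates 2 and 3 alone both were called lower in MT (edgeR adjusted p 1.85e-05 for Nr4a1 and 0.000101 for Egr1). Leaving out libraries gave -0.14 to 0.15 for Nr4a1 and -0.033 to 0.28 for Egr1. In young cells leaving out libraries gave -0.42 to 0.085 for Nr4a1. For old against young, Jund in WT became 0.71 without length and GC trends, and with the sex covariate Fos, Jund and Egr1 in WT became 0.011, 0.12 and 0.25 and Dusp1 in MT -0.076. Nr4a1 in MT became 0.029 without the 2 young libraries and -0.48 to 0.029 leaving out single libraries. In the interaction with cell type, removing length and GC trends gave Junb -0.052, Jund -0.016, Egr1 0.0028, Ier2 -0.032 and Zfp36 -0.056, replicates 2 and 3 summed gave Egr1 0.14 and Dusp1 0.020, and replicates 2 and 3 alone gave Junb -0.041, Jund -0.012 and Zfp36 -0.16. Leaving out libraries there gave -0.24 to 0.00053 for Fos, -0.026 to 0.20 for Jund, -0.25 to 0.041 for Egr1, -0.14 to 0.091 for Zfp36 and -0.18 to 0.033 for Dusp1. The causes were not tested.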

Other observations

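Between old and young WT Cd11b cells the genes around the 10 moved in both directions. Of 24 genes upstream of the early response 12 were higher and 7 lower in old cells, and of 40 other immediate early genes 9 were higher and 22 lower, with median log2 values of 0.13 and -0.45 (edgeR, adjusted p under 0.05). Over all genes 36.1% were higher and 36.9% lower in that comparison. Of 13 heat-shock genes 1 was higher and 7 were lower, with a median of -0.55. In MT cells the same 3 lists had 12 higher and 6 lower, 15 higher and 18 lower, and 4 higher and 4 lower, where 35.2% of all genes were higher and 36.5% lower. Against old WT Cd11b cells, LK WT cells had 3 upstream genes higher and 15 lower of 24, with a median of -0.86, where 45.1% of all genes were higher and 41.7% lower. Several of these counts are near the shares over all genes.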
